A study of Mus musculus with 38 samples.

Results

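The 4 Hox clusters of the mouse genome, HoxA on chromosome 6, HoxB on chromosome 11, HoxC on chromosome 15 and HoxD on chromosome 2, were examined in adult liver. The members are all peaks of 12 deposited peak lists that overlap chr6:52090000-52280000 (HoxA), chr11:96040000-96240000 (HoxB), chr15:102740000-102880000 (HoxC) or chr2:74480000-74620000 (HoxD) on build mm9. This position rule gave 177 peaks of 384017, and the 4 intervals carry 38 named Hox genes. The rule uses positions alone, and it was proposed with earlier results of these data known.

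The lists come from chromatin immunoprecipitation followed by sequencing (ChIP-seq), which maps where a histone modification lies, in whole livers of CD-1 mice, an outbred stock from Charles River, aged 8 weeks. Males and females were profiled without any treatment or engineered allele, with antibodies against H3K4me1, H3K4me3, H3K27ac, H3K36me3, H3K27me3 and H3K9me3. Control libraries with IgG are labelled 8 weeks, and an earlier IgG record 7 to 8 weeks. The 34 histone libraries gave 1 pooled list for each mark and sex, from 2 to 4 libraries each, because the deposited files of a mark and sex are identical. There is therefore no spread between animals, and no test between the sexes was run.

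Hox genes encode homeodomain transcription factors that give cells their position along the body axis, and their order along each cluster follows the body regions in which they act. Polycomb complexes keep them silent where they are not needed by depositing H3K27me3, while Trithorax-type complexes deposit H3K4me3 at active or poised promoters. H3K4me1 lies at enhancers and around promoters, H3K27ac at active enhancers and promoters, H3K36me3 over transcribed gene bodies, and H3K9me3 over heterochromatin. Liver is a mixture of hepatocytes with endothelial, stellate, bile duct and blood cells. In such bulk tissue, a mark in fewer cells and less of the mark per cell cannot be told apart, and 2 marks at 1 place need not lie in the same cells.

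The promoters of 4 Hox genes are shown because they differ in marks and in density of CG dinucleotides, as given in the results that follow. Each is the stretch of 250 bases before the start site, 5′ to 3′ along the gene, from RefSeq (GRCm38.p6), with each CG in capitals. Their mm9 positions come from matching these letters to the aligned control reads, and are chr6:52154588-52154837 (minus strand) for Hoxa5, chr6:52210876-52211125 (minus) for Hoxa13, chr11:96226823-96227072 (plus) for Hoxb1 and chr2:74559786-74560035 (plus) for Hoxd4.
Hoxa5: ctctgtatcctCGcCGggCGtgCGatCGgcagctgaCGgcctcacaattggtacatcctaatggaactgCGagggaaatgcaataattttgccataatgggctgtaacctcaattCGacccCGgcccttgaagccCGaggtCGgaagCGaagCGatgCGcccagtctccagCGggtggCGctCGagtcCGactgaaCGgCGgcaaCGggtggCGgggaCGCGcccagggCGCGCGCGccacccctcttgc
Hoxa13: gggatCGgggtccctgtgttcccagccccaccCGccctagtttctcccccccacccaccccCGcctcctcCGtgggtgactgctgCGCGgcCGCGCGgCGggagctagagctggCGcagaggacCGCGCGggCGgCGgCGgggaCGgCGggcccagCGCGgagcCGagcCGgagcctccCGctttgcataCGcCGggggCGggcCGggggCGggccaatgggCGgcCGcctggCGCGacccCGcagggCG
Hoxb1: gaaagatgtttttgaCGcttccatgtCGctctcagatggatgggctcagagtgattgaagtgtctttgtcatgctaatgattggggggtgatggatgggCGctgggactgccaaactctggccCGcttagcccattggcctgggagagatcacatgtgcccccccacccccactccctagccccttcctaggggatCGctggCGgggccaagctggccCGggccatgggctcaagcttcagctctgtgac
Hoxd4: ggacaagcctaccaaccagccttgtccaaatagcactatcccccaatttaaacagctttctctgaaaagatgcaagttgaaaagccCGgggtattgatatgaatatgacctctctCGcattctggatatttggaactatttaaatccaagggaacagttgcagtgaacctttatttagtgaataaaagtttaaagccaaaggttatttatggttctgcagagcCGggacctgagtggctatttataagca

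The motif CG reads the same on both strands. Hoxa5 holds 28 CG, and 7.26% of the 27025 genes with a promoter in the RefSeq table hold at least as many in a stretch of the same length. Hoxa13 holds 35, which 2.82% of genes reach, Hoxb1 holds 7 (46.5%) and Hoxd4 holds 3 (70.4%). Promoter sequences matched for 22 of the 38 Hox genes, with a median of 12 CG and a range from 2 to 35. The median over all genes was 6, and 33.8% of genes reached the Hox median.

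The depth of the lists, as reads inside peaks, ran from 1526754 (male H3K9me3) to 20459697 (female H3K4me1). Control reads inside the Hox H3K27me3 islands numbered 7.48 to 8.82 per kb, below the medians of 9.07 (male) and 9.03 (female) over all islands of those lists. The liver label was checked on hepatocyte genes. Of 10 hepatocyte markers, 7 had a start site that could be placed on mm9, among them albumin (Alb) and apolipoprotein B (Apob). H3K4me3 lay within 1 kb of 6 of the 7 in either sex, and H3K27me3 lay at 0 of them.

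H3K27me3 islands spanned all 4 Hox intervals from end to end in both sexes, with 1 island per cluster and list. SICER, the authors' caller for this mark, joins enriched windows into such islands. Its gap setting of 2400 bp lets an island include shorter stretches without enriched windows. Coverage by an island therefore does not show the mark at every base. In males the HoxC island was 364 kb long and ranked 3 of 20048 islands by width, the HoxA island was 291.6 kb (rank 9), the HoxB island 244.4 kb (rank 13) and the HoxD island 194.4 kb (rank 32). In females the order was the same, with HoxC at 345.6 kb (rank 8 of 19506), HoxA at 310 kb (rank 13), HoxB at 288 kb (rank 17) and HoxD at 188 kb (rank 74). The median island of either list measured 21.6 kb. HoxC thus had the longest and HoxD the shortest of the 4 in each sex.

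The Hox islands were dense as well as long. The male islands at HoxA held 11629 reads, at HoxB 9130, at HoxC 13141 and at HoxD 7524. These are 39.9, 37.4, 36.1 and 38.7 reads per kb, where the median male island had 26.1. The female islands held 16646 reads at HoxA, 14800 at HoxB, 17037 at HoxC and 10450 at HoxD. Their densities were 53.7, 51.4, 49.3 and 55.6 reads per kb, where the median female island had 27.3. The fold over control in the authors' deposited table was 2.35 (HoxA), 2.58 (HoxB), 2.36 (HoxC) and 2.40 (HoxD) in males, and 3.15, 3.48, 3.25 and 3.46 in females. The list medians of that fold were 1.49 and 1.56. All 4 clusters lay above the median of their list on all 3 measures, and within a sex they differed little in density.

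**Figure D1:**
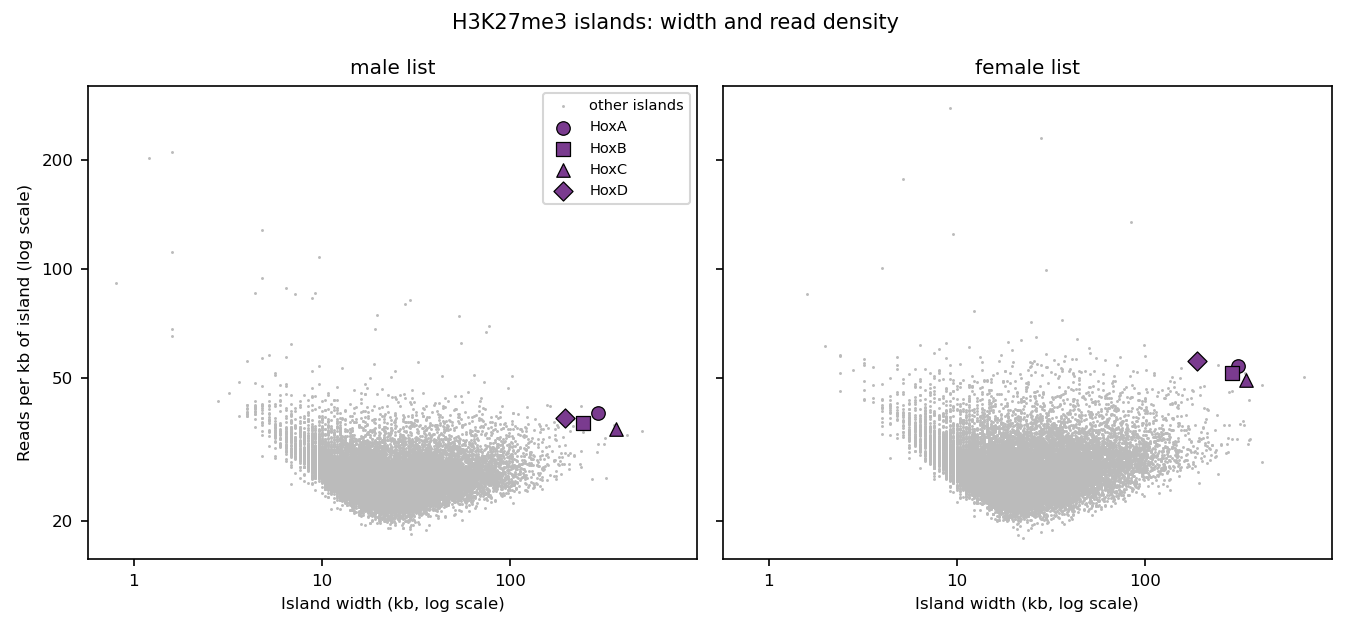
Width (horizontal axis, kb, log scale) and reads per kb (vertical axis, log scale) of each H3K27me3 island in the male list (left) and the female list (right). Grey points are other islands and the large symbols are the 4 Hox islands, which lie at the long end of both lists with 36.1 to 39.9 reads per kb in males and 49.3 to 55.6 in females.

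**Figure D2:**
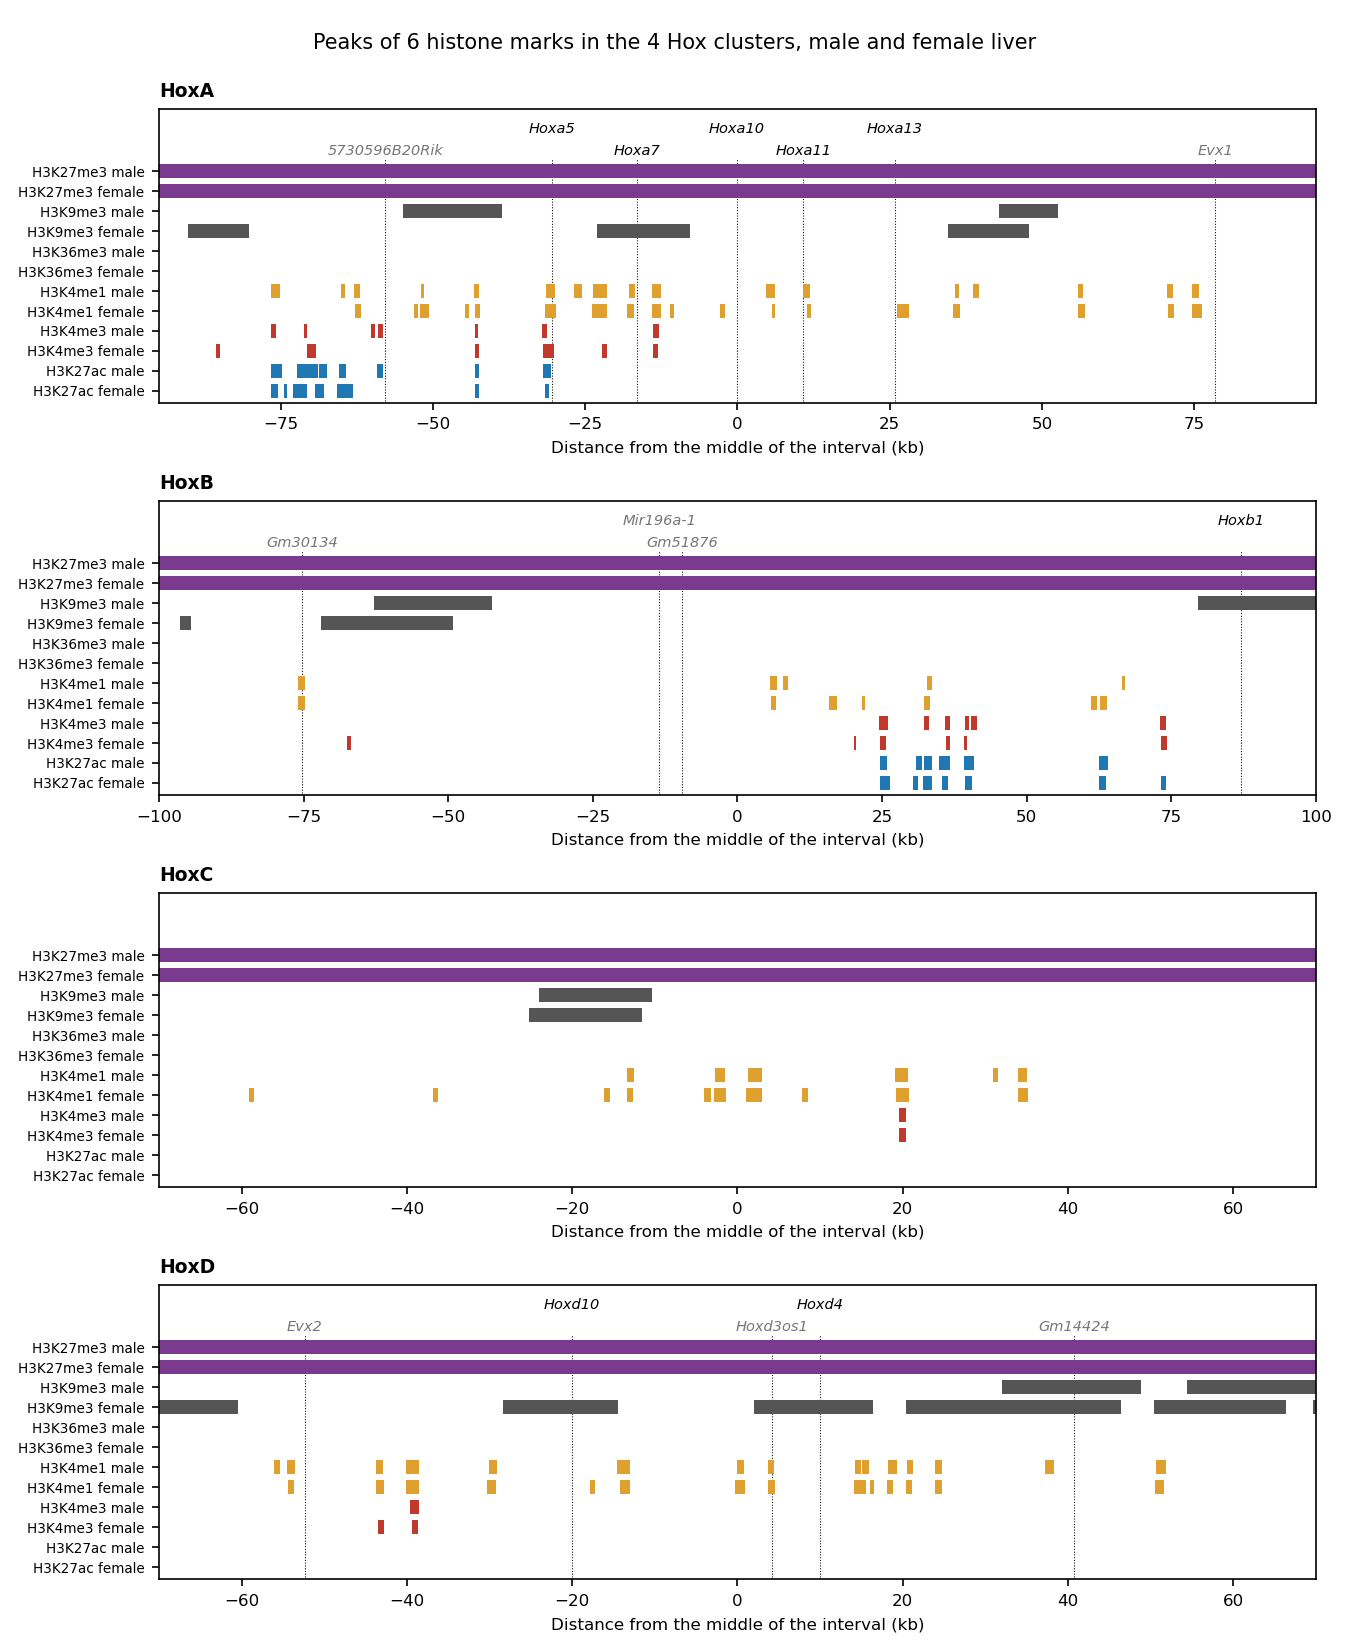
Peaks of each mark in the 4 Hox intervals, with 1 row per mark and sex and the distance from the middle of the interval in kb on the horizontal axis. Dotted lines mark start sites that could be placed, with Hox genes in black and other genes in grey. H3K27me3 islands span every interval, H3K36me3 is missing from all of them, and H3K27ac is limited to one stretch of HoxA and one of HoxB.

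The island edges lay at different distances from active neighbours at each cluster. At HoxD the islands of both sexes ended at the same base, chr2:74663199, inside a strong H3K4me3 peak (chr2:74663034-74665282 in males, 418 tags, and chr2:74663000-74665016 in females, 302 tags). The H3K27ac peak there, chr2:74663015-74665451, held 610 tags in males, was 44.7-fold over control in the authors' deposited table and stood at 1.1% of its list by score. The next gene after Hoxd1 in RefSeq order is Mtx2, whose start was not placed. On the other side the HoxD island began 50.9 kb (male) and 57.4 kb (female) away from the H3K4me3 peak at the start of Lnpk, a gene for an endoplasmic reticulum protein.

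At HoxC the male island began at chr15:102553600, 0.26 kb from the H3K4me3 peak (325 tags) at the start of Calcoco1, and the female island began 7.48 kb from the corresponding peak (328 tags). The male HoxC island ended inside an H3K27ac peak of 986 tags (chr15:102917056-102922817), and the female island ended 13.4 kb before its nearest H3K27ac peak. At HoxA and HoxB the nearest H3K4me3 peaks before the islands lay 27.9 and 68.7 kb away in males and 9.96 and 25.7 kb away in females. After the islands the nearest H3K4me3 peaks lay 268 and 286 kb away at HoxA (male, female) and 189.5 and 189.1 kb at HoxB. The female islands reached further before HoxA and HoxB than the male ones, and less far at both ends of HoxC.

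The authors' male over female log2 ratios of the Hox islands were all below 0. In the authors' deposited table they were -0.36 (HoxA), -0.41 (HoxB), -0.29 (HoxC) and -0.38 (HoxD) in the male list, and -0.35, -0.41, -0.30 and -0.38 in the female list. The sex p-values there ran from 1.09e-102 (HoxB) to 7.06e-71 (HoxD) in the male list of the authors' deposited table, which compares pooled libraries. None of these islands was called different, since the authors' rule also asks for an absolute log2 ratio of 1. Over the male list 0.798% of islands were called male and 0.00998% female, and over the female list 0.0205% and 0.041%.

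Ratios this low were uncommon but not limited to Hox. Islands with a lower ratio made up 0.653% of the male list for HoxA, 0.359% for HoxB, 1.64% for HoxC and 0.534% for HoxD, and 2.97%, 1.62%, 5.15% and 2.18% of the female list. Of other islands at least as long and as enriched as the shortest and weakest Hox island, 5 of 5 male ones and 6 of 6 female ones also had ratios below 0, with medians of -0.29 and -0.28 in the authors' deposited table. Of all other islands, 5771 of 20044 in the male list and 11670 of 19502 in the female list were below 0, so the sign alone sets little apart in females. The sources used here do not say how these ratios were normalised.

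H3K36me3, the mark of transcribed gene bodies, had 0 peaks in the 4 intervals in either sex, out of 25517 male and 19057 female islands. It also met 0 of the 4 whole Hox H3K27me3 islands. Of all other H3K27me3 islands it met 4.42% in males and 4.95% in females, and of those at least as long as the shortest Hox island 4 of 28 and 8 of 70. It met 2 of 5 and 3 of 6 of those with at least the length and fold of the Hox islands. A count of 0 in 4 is not set apart from the lower of these shares, and the sets of 5 and 6 islands are too small for a comparison. The nearest H3K36me3 islands lay outside, from 2.60 kb (before HoxC in males) to 376 kb away (after HoxB in males). The authors' caller set the reach of these lists, so a level under its threshold was not detectable.

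H3K27ac, the mark of active enhancers and promoters, was found in HoxA and HoxB alone, with 7 and 6 peaks in males and 7 and 7 in females. HoxC and HoxD intervals held 0 in both sexes. It covered 5.52% of HoxA and 4.55% of HoxB in males, and 4.93% and 4.15% in females. In HoxA the peaks ran from chr6:52108361 to chr6:52154414 in males and from 52108414 to 52154098 in females. That stretch starts before 5730596B20Rik, a noncoding gene that RefSeq order puts between Hoxa3 and Hoxa4, and ends beside the start of Hoxa5 (chr6:52154587). No H3K27ac peak was found from there over Hoxa7, Hoxa10, Hoxa11 and Hoxa13 to Evx1, a homeobox gene at the end of the cluster.

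In HoxB the H3K27ac peaks ran from chr11:96164574 to 96204042 in males and from 96164679 to 96214044 in females. They lie between the noncoding gene Gm51876 (start chr11:96130366) and Hoxb1 (start chr11:96227073). RefSeq order puts Hoxb9, Hoxb8, Hoxb7, Hoxb6, Hoxb5, Hoxb4, Hoxb3 and Hoxb2 in that gap, and none of them could be placed singly. RefSeq order puts Hoxb13 on the far side of Gm30134, and the interval held no H3K27ac on that side.

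The acetylated peaks were weak. The male HoxA peak with the most tags, chr6:52112694-52116166, had 199 tags and the male HoxB one, chr11:96174838-96176825, had 125. In females the leading peaks were chr6:52112088-52114336 with 121 tags and chr11:96164679-96166312 with 81. The fold over control in the authors' deposited table had a median of 5.15 in males and 5.43 in females, against 7.76 and 7.16 over the lists. By score, 0 of 13 male and 0 of 14 female peaks were in the better 50% of their list. Of them 9 and 7 had a false discovery rate of 10% or less in the authors' deposited table, against 77.6% and 77.7% of the lists.

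H3K4me3 peaks numbered 15 in each sex, with 7 in HoxA, 6 in HoxB, 1 in HoxC and 1 in HoxD in males, and 6, 6, 1 and 2 in females. The best-ranked one by score in each sex lay between Hoxa7 and Hoxa10, 2.49 kb from the start of Hoxa7, where RefSeq order puts Hoxa9 and the microRNA gene Mir196b. It spanned chr6:52171065-52172074 in males with 68 tags, and chr6:52171070-52172024 in females with 82 tags. An H3K4me1 peak of 148 tags (male) and 210 tags (female) lay over it, with no H3K27ac. The fold over control in the authors' deposited table was 10.58 (male) and 17.77 (female) for H3K4me3 there, and 15 and 17.55 for H3K4me1. No peak of either mark had a higher fold in the Hox intervals, and the male HoxD peak described below had the same H3K4me3 fold. By tags it was not first, since a male HoxB peak (chr11:96164511-96165995) had 73, the male HoxD peak 70 and the female peak at Hoxa5 89.

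Most H3K4me3 peaks of Hox were faint. The median fold over all 15 in the authors' deposited table was 5.80 in males and 6.90 in females, against 14.68 and 19.11 over the lists. Again 0 of 15 peaks in either sex were in the better 50% of the list, and the median rank stood at 90.6% and 83.0% of the way down. A false discovery rate of 10% or less was given to 3 male and 7 female peaks in the authors' deposited table, against 78.9% of either list. Most male H3K4me3 peaks in Hox thus lay near the bottom of their list.

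HoxC had a single H3K4me3 site, chr15:102829555-102830408 in males with 45 tags and chr15:102829490-102830349 in females with 37 tags. An H3K4me1 peak covered it in both sexes, with 139 and 159 tags, and no H3K27ac lay there. No gene start in HoxC could be placed, so the site is given without a gene. The same pair of marks without H3K27ac was thus found in HoxA, HoxC and HoxD.

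The HoxD site was the single place in the 4 clusters that the authors called different between the sexes. It lies between Evx2, a homeobox gene beside the cluster, and Hoxd10, 12.7 kb from the start of Evx2 and 18.5 kb before Hoxd10, where RefSeq order puts Hoxd13, Hoxd12 and Hoxd11. H3K4me3 had 70 tags at chr2:74510360-74511483 in males and 27 tags at chr2:74510604-74511290 in females. The log2 ratio of male over female in the authors' deposited table was 1.15 with a p of 0.000106 in the male list, and 1.17 with a p of 0.000231 in the female list. These are 1 of 15 peaks in each list, where 4.46% of the male and 1.34% of the female H3K4me3 peaks were called male (0.499% and 1.25% called female). A count of 1 peak beside such shares says nothing about Hox as a group. The female peak had a false discovery rate of 31.8% in the authors' deposited table. H3K4me1 at the same site had 151 tags in males and 173 in females, and log2 ratios of 0.41 and 0.40 in the authors' deposited table, and was not called.

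No other peak of any mark in the 4 intervals was called. For H3K4me1 the authors' rule called 8.21% male and 0.501% female over the male list, and 1.25% and 3.88% over the female list, with 0 of 43 and 0 of 50 in Hox. For H3K27ac the list shares were 1.74% and 0.861%, and 0.608% and 3.02%, with 0 of 13 and 0 of 14 in Hox. For H3K9me3 they were 3.42% and 0.0276%, and 0.0624% and 2.24%, with 0 of 7 and 0 of 12. The HoxD H3K4me1 peak after Hoxd10, chr2:74535378-74536967 in males, had 145 tags. Its log2 value in the authors' deposited table was 0.72 with a p of 6.41e-06, short of the ratio needed for a call.

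**Figure D3:**
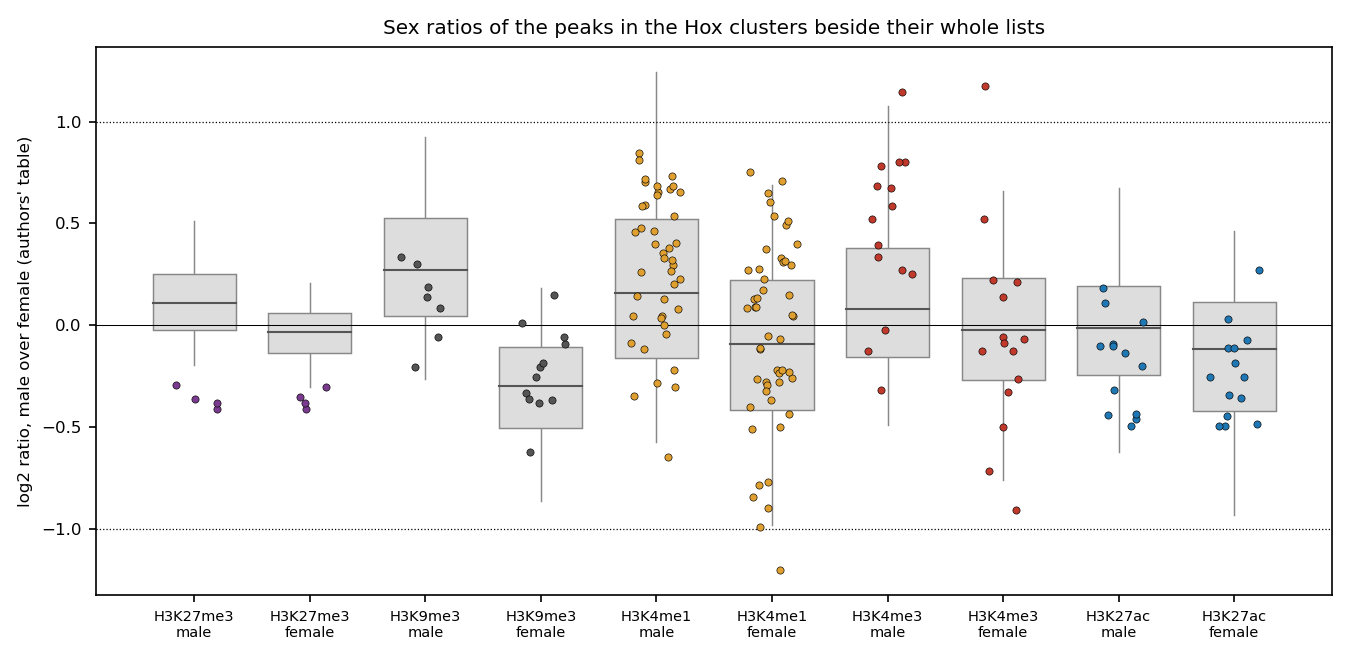
Log2 ratio of male over female signal from the authors' deposited table (vertical axis) for each Hox peak (points) by mark and list. Boxes give the middle 50% and the median of the whole list, whiskers reach from the 5th to the 95th percentile, and dotted lines mark the ratio of 1 used for calls. All Hox H3K27me3 points lie between -0.41 and -0.29, and 2 H3K4me3 points, both from the HoxD site, lie above the upper line with a call.

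H3K4me1 was the most frequent mark, with 43 male and 50 female peaks, and it was spread over all 4 clusters. The counts were 17 in HoxA, 5 in HoxB, 6 in HoxC and 15 in HoxD in males, and 19, 7, 10 and 14 in females. It covered 10.1%, 2.20%, 5.14% and 10.8% of these intervals in males, and 10.8%, 3.51%, 7.32% and 9.60% in females. HoxB had the least H3K4me1 coverage in both sexes. The peak with the most tags lay between Hoxa5 and Hoxa7, chr6:52161310-52163582 in males with 175 tags and chr6:52161180-52163638 in females with 259 tags, where RefSeq order puts Hoxa6.

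In HoxC the leading H3K4me1 peak had 139 tags in males, at the H3K4me3 site named above, and 165 tags in females at chr15:102811032-102812924. In HoxB it lay over the start of Gm30134, a noncoding gene next to Hoxb13 in RefSeq order, with 75 tags in males and 98 in females. The median fold of the Hox peaks was 6.69 (male) and 6.02 (female) in the authors' deposited table, close to the list medians of 6.87 and 6.77. By score, 8 of 43 and 12 of 50 were in the better 50% of their list. H3K4me1 was thus the one active-type mark of Hox with peaks in the better part of its list.

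H3K4me1 in Hox seldom came with H3K27ac. An H3K27ac peak overlapped 5 of 43 H3K4me1 peaks in males (11.6%) and 4 of 50 in females (8.00%). The shares were 24.5% and 19.1% in other H3K27me3 islands and 65.1% and 53.5% outside such islands. In HoxC and HoxD it was 0 of 6 and 0 of 15 in males, and 0 of 10 and 0 of 14 in females. The converse also held, since 5 of 13 male and 4 of 14 female H3K27ac peaks in Hox overlapped H3K4me1, against 72.4% and 75.5% in other H3K27me3 islands. These shares are descriptions of single lists, and their differences were not tested.

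H3K4me3 peaks of Hox overlapped H3K27ac in 10 of 15 cases in males and 7 of 15 in females, beside 53.6% and 43.4% in other H3K27me3 islands. All of those overlaps were in HoxA and HoxB. They overlapped H3K4me1 in 7 of 15 cases in each sex, beside 87.2% and 85.0% in other H3K27me3 islands. Per 100 kb of island, the Hox H3K27me3 islands held 1.46 (male) and 1.41 (female) H3K4me3 peaks and 1.37 and 1.33 H3K27ac peaks. All other H3K27me3 islands held 0.41 and 0.54 H3K4me3 peaks and 0.50 and 0.46 H3K27ac peaks per 100 kb. Other islands with at least the fold of the weakest Hox island held 0.97 and 1.48 H3K4me3 peaks and 0.61 and 0.66 H3K27ac peaks per 100 kb, so in females their density of H3K4me3 was no lower than that of Hox. Their median width was 15.2 kb in males and 17.6 kb in females. The 5 male and 6 female islands with at least the length and fold of Hox islands held fewer. They had 0.42 and 0.30 H3K4me3 peaks and 0.35 and 0.25 H3K27ac peaks per 100 kb.

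**Figure D4:**
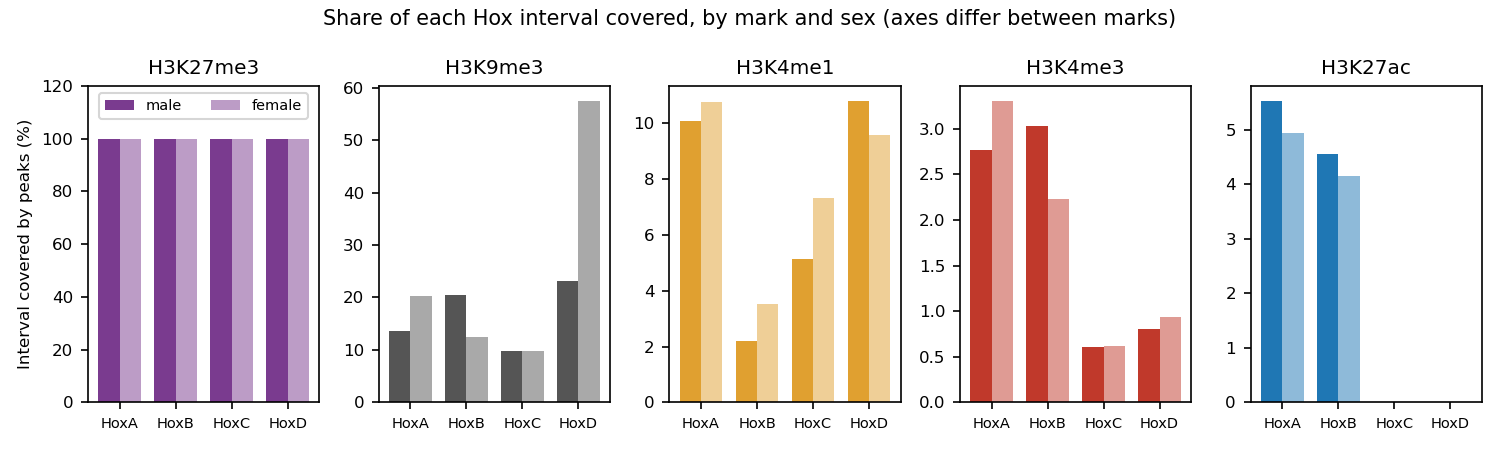
Percent of each Hox interval covered by peaks, by mark, for the male list (dark bars) and the female list (light bars), with vertical axes from 0 that differ between marks. H3K27me3 reaches 100% throughout, H3K27ac is 0 in HoxC and HoxD, and H3K9me3 in HoxD goes from 23.1% in males to 57.4% in females.

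Peaks without a partner in the other sex, meaning no overlap of 1 bp, were 9 of 43 male H3K4me1 peaks beside 15.2% of that list and 17 of 50 female ones beside 28.4%. For H3K4me3 they were 6 of 15 in males beside 8.96% and 6 of 15 in females beside 18.4%. For H3K27ac they were 1 of 13 beside 21.2% and 2 of 14 beside 11.6%. For H3K9me3 they were 2 of 7 beside 39% and 5 of 12 beside 60.3%, and for H3K27me3 they were 0 of 4 beside 19.5% and 0 of 4 beside 21.2%. All H3K4me3 peaks of Hox, with or without a partner, were in the weaker 50% of their list, so this split does not separate them. The part of peak strength in these counts was not tested.

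H3K9me3, the heterochromatin mark, had 7 islands in males and 12 in females, of which 2 and 6 were in HoxD. It covered 23.1% of HoxD in males and 57.4% in females, 13.7% and 20.2% of HoxA, 20.4% and 12.4% of HoxB, and 9.71% of HoxC in either sex. The female list is longer, with 17626 islands against 10875. With both lists cut to the same length, 6 female islands were left and the coverage of the 4 intervals together was 13.2% in females, beside 16.8% in males.

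The best-ranked H3K9me3 island in Hox was a female one in HoxB, chr11:96068000-96090799, with 333 reads, at 1.96% of its list. It lies after Gm30134 and before the microRNA gene Mir196a-1, and the male list has an island of 160 reads at chr11:96077200-96097599. Their fold over control in the authors' deposited table was 3.18 in females and 1.80 in males, and the log2 ratio was -0.36 and -0.06. In HoxD the female island with the most reads, chr2:74458400-74489599, had 389 reads and, in the authors' deposited table, a log2 value of -0.62. In HoxC the male (104 reads) and female (115 reads) islands overlapped, at chr15:102786000-102799599 and chr15:102784800-102798399. Each list thus had a single H3K9me3 island in HoxC, at nearly the same place.

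Start sites of 8 Hox genes could be placed: Hoxa5, Hoxa7, Hoxa10, Hoxa11, Hoxa13, Hoxb1, Hoxd4 and Hoxd10. The other 30 could not and are not counted in what follows. H3K27me3 lay within 1 kb of 8 of 8 in both sexes, beside 27.4% (male) and 28.8% (female) of 13370 placed autosomal genes. This follows from the full coverage of the intervals, inside which all 8 starts lie. The 8 starts share the islands of HoxA, HoxB and HoxD, so they are not separate observations. Hoxa5 alone also had H3K4me3 and H3K27ac, in both sexes, a state of 3.11% and 3.44% of placed genes. The other 7 had H3K27me3 without either, beside 21.7% and 22.5% of placed genes. H3K4me1 lay at Hoxa5, Hoxa7 and Hoxa11 in both sexes and also at Hoxa13 in females, beside 54.3% (male) and 56.9% (female) of placed genes. H3K9me3 lay at Hoxb1 in males and at Hoxa7, Hoxd4 and Hoxd10 in females, beside 7.55% and 6.92% of placed genes.

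Hoxa5, which acts in lung and neck development, had an H3K27ac peak of 87 tags in males (chr6:52153067-52154414) and of 32 tags in females (chr6:52153336-52154098). Its H3K4me3 peak had 36 tags in males (chr6:52152974-52153803) and 89 in females (chr6:52152998-52154843). The female H3K27ac peak had a false discovery rate of 62.3% and the male H3K4me3 peak one of 100% in the authors' deposited table. The log2 ratios there were 0.18 and 0.27 for H3K27ac and -0.32 and -0.13 for H3K4me3, without a call. The male H3K27ac and the female H3K4me3 peak were better supported, with rates of 1.76% and 1.85% in the authors' deposited table.

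The part of CG density in the marks of the placed Hox promoters was not tested. As shown in the printed sequences, Hoxa13, the distal limb and urogenital gene, has more CG than Hoxa5, as no other placed Hox promoter does. Hoxa13 carried H3K27me3 without H3K4me3. Hoxd10 (20 CG) and Hoxa10 (20 CG in the placed one of its promoters) were also without H3K4me3, like the CG-poor Hoxd4 and Hoxb1, a hindbrain gene. Among placed genes with a single promoter sequence, the median count was 16 where H3K4me3 and H3K27ac lay together, 15 with all 3 marks, 12.5 with H3K4me3 and H3K27me3, 3 with H3K27me3 alone and 2 with none of them (male lists). Of the 7 placed Hox promoters with H3K27me3 alone, only Hoxd4 was at that median of 3, and Hoxa7 (7), Hoxb1 (7), Hoxa11 (13), Hoxd10, Hoxa10 and Hoxa13 were above it.

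**Figure D5:**
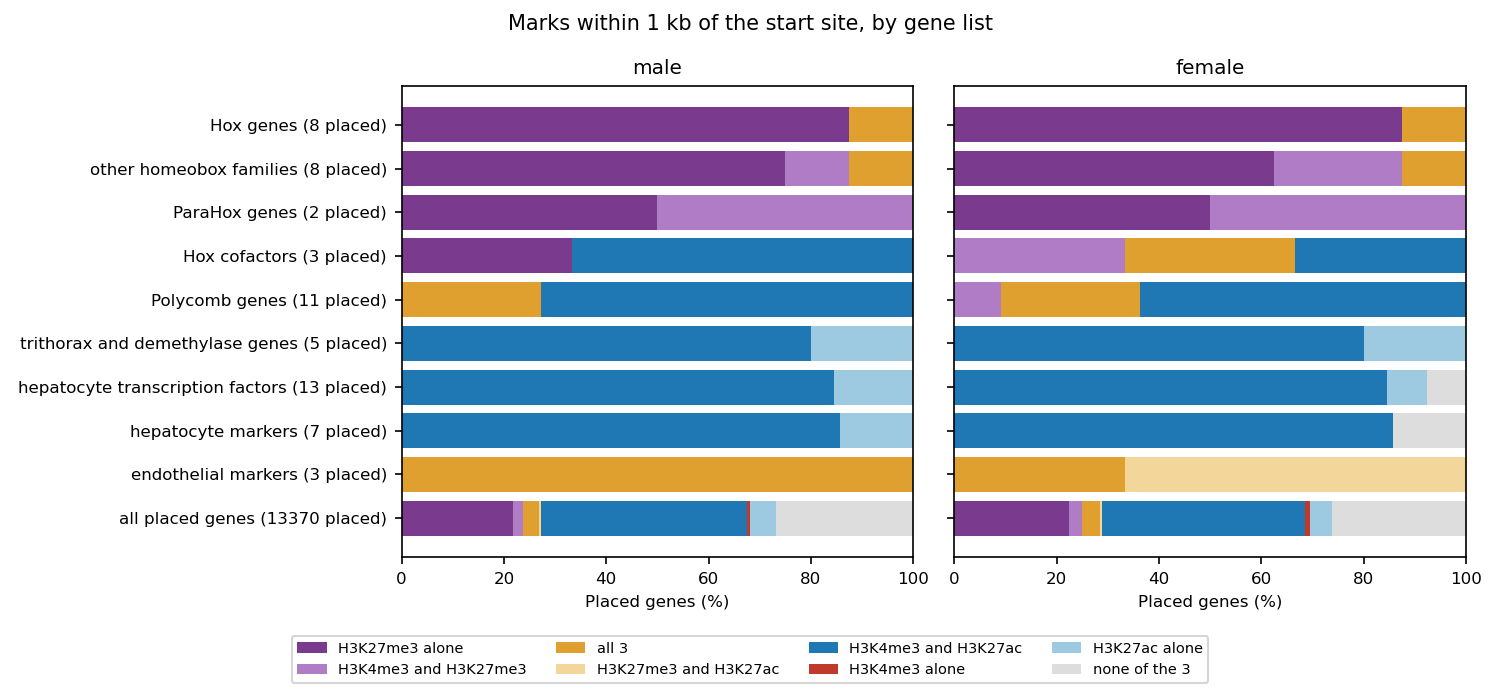
Share of placed genes (horizontal axis, %) in each combination of H3K4me3, H3K27ac and H3K27me3 within 1 kb of the start site, for male (left) and female (right) lists, by gene list with the number placed. Of the 8 Hox genes 7 carry H3K27me3 alone, like most other homeobox genes, while hepatocyte genes carry H3K4me3 with H3K27ac.

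The other homeobox families and the regulators of Hox genes were read the same way. Of 35 genes of the Dlx, Lhx, Nkx, Pax, sine oculis and Irx families, 8 were placed, and 8 of 8 had H3K27me3 in both sexes. H3K4me3 lay at 2 of them in males and 3 in females, and H3K27ac at Irx3 alone. Of the ParaHox genes, the sister group of Hox, Cdx2 had H3K27me3 alone and Gsx1 had H3K4me3 with H3K27me3. In males the islands over the 8 genes of the Dlx to Irx families were all shorter than the HoxD island, and the longest was that of Six2 at 188.8 kb. In females the islands of Six2 (262.4 kb), Irx3 (207.6 kb) and Nkx2-1 (196 kb) were longer than that of HoxD and shorter than the other Hox islands. By fold over control in the authors' deposited table, Lhx3 (2.97) and Pax6 (2.81) were above every male Hox island (2.35 to 2.58). Dlx1 (2.37) was above HoxA and HoxC, and the rest were below all Hox islands in males. In females all 8 were below every Hox island (3.15 or more), with Dlx1 highest at 3.05. The log2 values of these 8 islands in the authors' deposited table were below 0, from -0.52 (Dlx1) to -0.07 (Irx3) in males and from -0.41 (Dlx1) to -0.05 (Irx3) in females.

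Genes of the Polycomb complexes themselves carried active marks. Of 28 listed, 11 were placed, all with H3K4me3 in both sexes, and 3 in males (Cbx7, Phc1 and Phf19) and 4 in females (with Cbx8) also had H3K27me3. Of 9 Trithorax and demethylase genes 5 were placed, 4 with H3K4me3, 5 with H3K27ac and 0 with H3K27me3. Of the Hox cofactors, which bind DNA together with Hox proteins, Meis1 and Meis2 had H3K4me3 and H3K27ac in both sexes, and Meis3 had H3K27me3 in both. In females Meis2 also had H3K27me3 and Meis3 also had H3K4me3. Of 16 hepatocyte transcription factors 13 were placed, 11 of them with H3K4me3 and 0 with H3K27me3.

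Markers of the other liver cell types were read as well. Of 8 endothelial markers 3 were placed (Clec4g, Stab2 and Tek). All 3 had H3K27ac and H3K27me3 in both sexes, and H3K4me3 lay at 3 in males and at 1, Tek, in females. Of 8 stellate and fibroblast markers 2 were placed, Lrat with H3K4me3 and H3K27me3 and Acta2 with H3K27me3 alone. Of 6 bile duct markers 2 were placed, Epcam with H3K4me3 and H3K27me3 and Spp1 with H3K27ac alone. Of 8 blood cell markers 4 were placed, and 2 in males and 1 in females had H3K27ac. The part of these cells in the H3K27ac and H3K4me3 of HoxA and HoxB was not tested.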

How the data were processed

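Per the submitters' processing notes, reads were mapped to mm9 with Bowtie, and SICER 1.1 called the H3K27me3, H3K9me3 and H3K36me3 islands. The SICER window and gap, per the labels, were 400 and 2400 bp for both silent marks and 200 and 800 bp for H3K36me3. The sources used here do not name the caller of the other lists, whose columns are those of MACS. The deposited tag and read counts are whole numbers, except that part of the H3K27ac tags were written to 3 digits by the authors. Per the file headers, the deposited tables also give a fold ratio over control, a false discovery rate (in percent for the MACS-type lists), a score (10 times the negative log10 of the p-value), the log2 sex ratio (male over female), its p-value and a call. The scores and folds of peaks are the authors' own and were used to rank and describe peaks within a list. The call is an absolute log2 ratio of 1 or more with p below 0.001, and the authors' p-value compares pooled libraries.

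Python 3.11.15 with pandas 2.3.3 and numpy 2.4.6 computed overlaps (1 bp) and coverage. No mm9 genome or annotation was used, so gene starts were placed by matching RefSeq promoter sequences (250 bases before to 50 after the start, GRCm38.p6) to the 11201113 deposited IgG control reads of 35 bases aligned to mm9. Genome-wide, 25 bases of a read had to match a single sequence, with up to 2 changed bases in the read; at Hox, overlaps of 16 to 24 bases had to be exact. All 8 placed Hox genes had an exact match. The genome-wide placement was tested on simulated data, and the separate matching at Hox was not. Hoxb1 was placed through an exact overlap of 16 bases. RefSeq was otherwise used for gene names and order. Named genes were the Hox genes, fixed neighbours and fixed pathway and cell type lists. Named peaks were those with the most tags per cluster and list, those called by the authors, and the longest H3K27me3 islands, and other peaks named were chosen after their values were seen. The members and lists were chosen with earlier results of these data known. Libraries of a mark and sex have 1 pooled list, so no test was run, and the IgG libraries without reads were not used here. Coverage of whole lists is not given in percent, because chromosome lengths were not used here. Alternatives changed the peak subset, intervals, promoter window, list lengths and call threshold.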

Additional observations from a re-analysis of the deposited data

How the results depend on the processing

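H3K27me3 coverage, the absence of H3K36me3 and H3K27me3 at all 8 placed Hox starts held under every alternative run for them. The last of these follows from the coverage. The count of H3K27me3 islands wholly inside an interval was 0 in either sex, since each island is longer than its interval. In the better-scoring 50% of each list, H3K4me1 kept 8 male and 12 female peaks (1.95% and 2.68% of the intervals), H3K9me3 kept 3 and 5 (7.58% and 11.04%), and H3K4me3 and H3K27ac kept 0 and 0 (0% and 0%). There, H3K4me1 lay at 1 male and 0 female Hox starts, H3K4me3, H3K27ac and H3K9me3 lay at 0, and Hoxa5 with all 3 marks became 0. With lists of equal length, female H3K9me3 fell to 6 islands (13.2%). Female H3K4me3 then fell from 15 to 10 peaks (1.49%), with male H3K4me3 still at 15. Female H3K4me1 fell from 50 to 42 peaks (6.95%), and male H3K27ac from 13 to 12 (2.83%).

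With a false discovery rate of 10% or less, chosen after seeing the data, 26 female H3K4me1, 3 male and 7 female H3K4me3 and 7 female H3K27ac peaks were left. Coverage was then 5.31% and 4.96% for H3K4me1, 0.540% and 1.17% for H3K4me3 and 1.75% for female H3K27ac. H3K4me3 in males and H3K27ac in females then lay at 0 Hox starts, so genes with all 3 marks numbered 0 in each sex and 1 female gene had H3K4me3 with H3K27me3.

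With the start required inside a peak, female H3K4me1 lay at 1 gene, male H3K4me3 and H3K27ac of both sexes at 0, all 3 marks at 0, and H3K4me3 with H3K27me3 at 1 in females. Within 2.5 kb, H3K4me3 lay at 2 genes in each sex, and 1 gene in each sex had H3K4me3 with H3K27me3. Male calls numbered 0 at an absolute log2 ratio of 1.5 and 4 at a ratio of 1.5-fold, where 1 female call appeared. At 1.5-fold each H3K4me1 and H3K4me3 list had 1 male call in Hox. Over the whole lists 16.3% (male) and 5.90% (female) of H3K4me1 peaks were then called male. For H3K4me3 these shares were 8.10% and 3.96%. The female call lay in the female H3K9me3 list, of which 6.71% was called female. Shortened intervals left H3K27me3 at 100% and H3K36me3 at 0% and shifted the other coverages, up or down by mark. Male H3K4me1 went from 6.8% to 7.8%, for example, and male H3K9me3 from 16.8% to 15.7%. Ratios centred on shared peaks left the calls at 2 male and 0 female.

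No paired analysis was possible because each mark and sex has 1 pooled list, and for the same reason no replicate was left out. Depth limits the absence of H3K27ac in HoxC and HoxD and of H3K36me3 to the callers' thresholds. The 30 Hox genes without a placed start, including all 9 of HoxC, are not covered by the promoter results.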

Other observations

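The start of the noncoding gene 5730596B20Rik (chr6:52127155), between Hoxa3 and Hoxa4 in RefSeq order, differed between the lists. H3K27me3 lay there in both sexes. Males also had an H3K27ac peak of 59 tags (chr6:52125827-52126850) and an H3K4me3 peak of 35 tags (chr6:52126019-52126802) there, and females had neither. The H3K4me3 peak had a false discovery rate of 100% and a log2 ratio of 0.78, and the H3K27ac peak a ratio of -0.10, in the authors' deposited table, with no call. Evx1 and Evx2, the homeobox genes beside HoxA and HoxD, had H3K27me3 alone in both sexes. Gm30134, Gm51876, Hoxd3os1 and Gm14424 also had H3K27me3 without H3K4me3 or H3K27ac in both sexes, and Gm14424 lay within 1 kb of H3K9me3 in both.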
